A study of Homo sapiens with 3 samples.

Results

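The claudins described here are CLDN1, CLDN2, CLDN3, CLDN4, CLDN7, CLDN8, CLDN10, CLDN12, CLDN15 and CLDN23, taken by gene name from the table of the series. They are 10 of the 23 claudin genes and 10 of the 35713 gene rows used. CLDN6, which was added to the cells, and its paralog CLDN9 are not among the 10. Total RNA came from the Ishikawa cell line, which derives from a human endometrial adenocarcinoma, and all 3 libraries share the line and its serum-supplemented medium. CLDN6 replicates 1 and 2 are 2 libraries with CLDN6 overexpressed, a state the labels call transient though they describe a lentiviral vector (CSII plasmid), and the remaining library is untreated wild type (WT). No library came from cells given an empty vector, so vector and insert cannot be told apart, and the labels name neither the promoter of the vector nor a clone. The question read here is which claudins this line makes beside CLDN6, and whether any of them follows the added CLDN6.

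Claudins are small membrane proteins that span the membrane several times and form the strands of tight junctions, the belt that closes the space between epithelial cells. The outer loops of claudins on neighboring cells meet and set which ions and molecules can pass between the cells. Some members, such as claudin-1, claudin-3 and claudin-4, are known for sealing that space, and others, such as claudin-2, claudin-10 and claudin-15, form channels in it for ions. Endometrial epithelium is known to make several of them side by side.

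Levels are given as RPM, reads for each 1000000 sequenced in that library. All values below are in the order CLDN6 replicate 1, CLDN6 replicate 2, WT, and depth in that order was 71088868, 65755120 and 67843384 reads. The check of the labels is CLDN6 itself, with 25197, 27129 and 16 reads. Its log2 change was 8.28 ± 0.98 (SE), with adjusted p = 5.81e-13 in limma's test with Benjamini-Hochberg adjustment, n = 2 against 1, and CLDN6 was above WT in both libraries. Over the alternatives tried the adjusted p of CLDN6 ran from 4.84e-17 to 0.999986, and the call was lost when no low values were filtered out and under limma-voom. The cells showed epithelial markers throughout, with EPCAM, KRT8, KRT18, KRT19 and CDH1 summing to 5963, 6318 and 5918 RPM. Of 7 stromal and mesenchymal markers, 6 (VIM and PDGFRB among them) were under 1 RPM in every library and COL1A1 was the exception, with sums of 17.2, 49.5 and 22.6 RPM for the list. The 6 endometrial and Mullerian markers (PAX8 and ESR1 among them) summed to 672, 262 and 514 RPM, lowest in CLDN6 replicate 2. The 4 endothelial markers summed to 16.4, 12.6 and 10.1 RPM, with all but VWF under 1 RPM in every library, and the 4 leukocyte markers to 0.788, 1.09 and 1.27 RPM, with PTPRC, CD3E and CD14 under 1 RPM. The table's column names carry the name of another line, ECC-1, while the labels name Ishikawa.

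Nearly all reads of the 10 genes came from 5 of them. CLDN1, CLDN3, CLDN4, CLDN7 and CLDN12 together held 98.4% (95% Clopper-Pearson interval 98.2 to 98.5), 98.1% (97.9 to 98.3) and 98.8% (98.6 to 98.9) of the reads of the 10 genes. Of the 10, 8 had reads in every library, and CLDN10 had none in any. Intervals and limits cover counting error only, since PCR copies are not independent molecules. In total the 10 genes gave 362, 302 and 369 RPM.

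**Figure D1:**
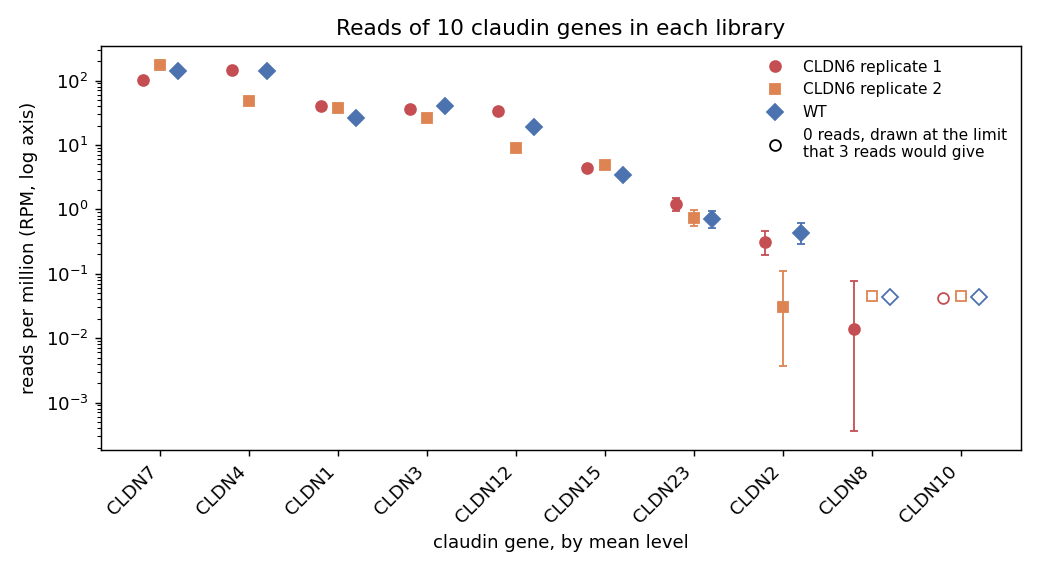
Level of each of the 10 claudin genes in RPM (log axis) in CLDN6 replicate 1 (circles), CLDN6 replicate 2 (squares) and WT (diamonds), with 95% counting intervals; open symbols mark 0 reads, drawn at the level of 3 reads. CLDN7 and CLDN4 lie at the top, CLDN4 and CLDN12 are lowest in CLDN6 replicate 2, and CLDN8 and CLDN10 are at or under the limit of detection.

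CLDN7, a claudin of many epithelia that also binds the adhesion protein EpCAM, was read at 102, 175 and 141 RPM. WT lay between the CLDN6 libraries. CLDN4, a sealing claudin and, with claudin-3, a receptor for the enterotoxin of Clostridium perfringens, was at 145, 48.2 and 138 RPM. CLDN6 replicate 1 and WT thus lay close together, with CLDN6 replicate 2 well below both.

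CLDN1, whose loss opens the water barrier of the skin, was at 40.1, 37.0 and 26.3 RPM, on 2851, 2434 and 1785 reads. Both CLDN6 libraries were above WT and close to each other. CLDN3 was at 35.6, 26.6 and 40.2 RPM, on 2534, 1749 and 2725 reads. Here both CLDN6 libraries were below WT, CLDN6 replicate 1 by less than the gap between the pair.

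CLDN12, a claudin whose role in the junction is less defined, was at 33.6, 8.91 and 19.0 RPM. It was high in CLDN6 replicate 1 and low in CLDN6 replicate 2, with WT between. CLDN15, which forms cation channels, was at 4.43, 4.88 and 3.36 RPM, on 315, 321 and 228 reads. Both CLDN6 libraries were above WT.

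The remaining 4 genes were below a mean of 1 RPM. CLDN23 (ENSG00000253958) had 85, 49 and 48 reads, or 1.20, 0.745 and 0.708 RPM, with CLDN6 replicate 2 and WT hardly apart. CLDN2, the cation and water channel of leaky epithelia, had 22, 2 and 29 reads, or 0.309, 0.0304 and 0.427 RPM, so that CLDN6 replicate 2 stood low. CLDN8, a claudin of the distal nephron and colon, had 1 read in CLDN6 replicate 1 and 0 in the others. CLDN10, whose splice forms make anion or cation channels, had 0 reads in all 3 libraries, and 0 reads allow up to 0.0422, 0.0456 and 0.0442 RPM. CLDN8 (in CLDN6 replicate 2 and WT) and CLDN10 were thus not detectable at this depth.

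Per length, counted as RPM per kb of merged exons, the order in WT was CLDN7 (56.6 RPM per kb), CLDN3 (31.5), CLDN4 (29.4), CLDN1 (7.18), CLDN12 (2.82), CLDN15 (1.16), CLDN23 (0.326) and CLDN2 (0.125). Over the 3 libraries the level of CLDN7 per kb ranged from 40.9 to 70.4 and did not overlap that of any other member. CLDN3 (20.9 to 31.5) and CLDN4 (10.2 to 30.8) overlapped, as did CLDN4 and CLDN1 (7.18 to 10.9), and CLDN12 (1.32 to 4.99) and CLDN15 (1.16 to 1.69). CLDN1 and CLDN12 did not overlap, nor did CLDN15 and CLDN23 (0.326 to 0.551), or CLDN23 and CLDN2 (0.00892 to 0.125). The order of the leading genes and some of these overlaps turned on the length used, an alternative chosen after seeing the data. With the transcript that GENCODE numbers first, CLDN4 reached 79.2, 26.3 and 75.5 RPM per kb against 66.1, 114 and 91.5 for CLDN7, so that CLDN4 led in CLDN6 replicate 1. With both other lengths, CLDN4 also moved past CLDN3 in WT, and CLDN12 (2.50 to 9.43) overlapped CLDN1 (7.56 to 11.5). With the longest transcript, CLDN4 (11.6 to 34.8) no longer overlapped CLDN1, nor did CLDN12 overlap CLDN15 (1.58 to 2.29).

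The make-up of the claudin message differed between the CLDN6 libraries. On the RPM scale the 10 genes summed to 118, 115 and 129 RPM per kb. That sum moves with the scaling of the libraries, while a single factor per library leaves the shares within it unchanged. Quantile normalization and removal of the GC, length and level trend move genes by different amounts, and shares were not computed under them. CLDN7 made up 34.7%, 61.2% and 43.8% of the sum on the RPM scale, and CLDN4 made up 26.2%, 8.91% and 22.8%. The 5 claudins grouped here as sealing (CLDN1, CLDN3, CLDN4, CLDN7 and CLDN8) held 93.9%, 97.1% and 96.6%. CLDN7 is the largest part of that share in every library, so the share rests on placing CLDN7 in this group. The 3 channel claudins (CLDN2, CLDN10 and CLDN15) held 1.38%, 1.48% and 0.997%. CLDN2, CLDN8 and CLDN10 gave almost none of these, so the channel share is in effect that of CLDN15.

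**Figure D2:**
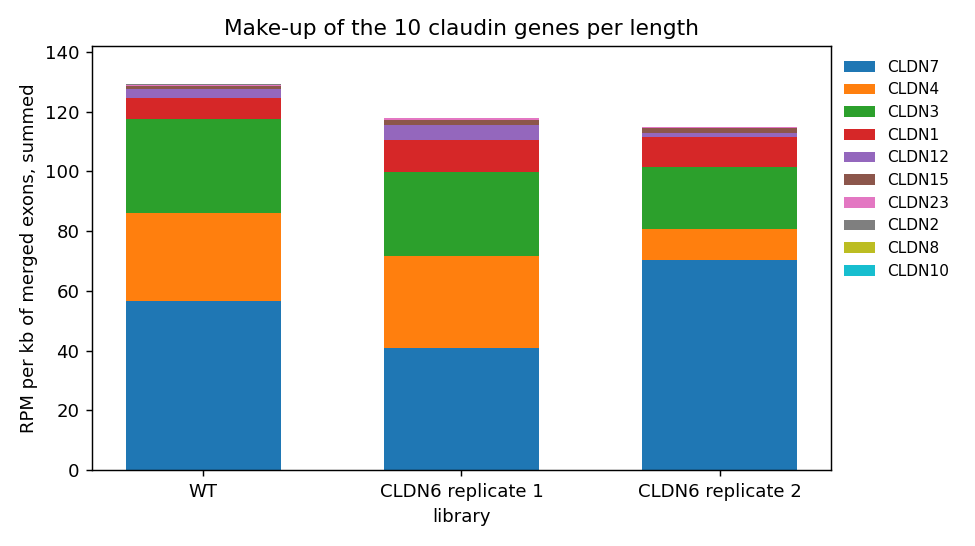
Sum of the levels of the 10 claudin genes in RPM per kb of merged exons, stacked by gene, in WT and in the CLDN6 libraries, 1 bar per library. The bars reach 129, 118 and 115 RPM per kb, and the CLDN7 part takes 61.2% of the bar of CLDN6 replicate 2 against 43.8% in WT, while the CLDN4 part takes 8.91% against 22.8%.

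Added CLDN6 came on top of this set. It took 48.8% (95% Clopper-Pearson interval 48.3 to 49.2) and 57.1% (56.7 to 57.6) of the reads of all 23 claudin genes in the CLDN6 libraries, against 0.0626% (0.0358 to 0.102) in WT. Its level of 354 and 413 RPM was similar to or above the 362 and 302 RPM of the 10 genes together in the same libraries. Which part of the CLDN6 transcript the vector carries is not given in the sources used here, so no level per length is set beside the others. The CLDN6 row overlaps that of TNFRSF12A, and reads of the overlap are uncertain.

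The genes lie on several chromosomes in GRCh38, and some lie beside another claudin. CLDN3 (ENSG00000165215, chromosome 7 from 73768997 to 73770270, minus strand, 1 exon) and CLDN4 (ENSG00000189143, chromosome 7 from 73799542 to 73832693, plus strand) are 29271 bases apart. Their RPM ratio, CLDN3 over CLDN4, was 0.246, 0.552 and 0.290, so these neighbors did not keep 1 proportion over the libraries. CLDN1 (ENSG00000163347, chromosome 3 from 190305701 to 190322475, minus strand) stands head to head with CLDN16, with 65 bases between their ends, and CLDN16 was read at 2.14, 1.43 and 1.33 RPM. The ratio of CLDN1 to CLDN16 was 18.8, 25.9 and 19.8. The channel claudins lie apart, CLDN15 (ENSG00000106404) on chromosome 7 from 101232092 to 101238820, CLDN2 (ENSG00000165376) on chromosome X from 106900164 to 106930861 and CLDN10 (ENSG00000134873) on chromosome 13 from 95433604 to 95579759. CLDN8 (ENSG00000156284) is on chromosome 21 from 30214006 to 30216073, 47249 bases from CLDN17.

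Promoter sequences from RefSeq (GRCh38.p14) were found for 8 of the 10 members, in 11 windows of the 250 bases before a start. CLDN8 and CLDN23 had none in that table. The first stretch shown lies before CLDN3, whose only transcript starts there. The second is the whole gap between the rows of CLDN1 and CLDN16. The RefSeq window of CLDN1 begins at 190322447, inside the CLDN1 row, so the gap does not reach that start. The third is the last 30 bases before the inner start of CLDN7, the member with the highest level in WT. That stretch of CLDN7 lies inside annotated exons, and whether they belong to CLDN7 or to an overlapping gene was not checked. Capitals mark GC boxes (GGGCGG) in the first 2 lines and E-boxes (CACCTG) in the third, on either strand, each 5′ to 3′ on the strand of the claudin named.
CLDN3, chr7:73770271-73770520: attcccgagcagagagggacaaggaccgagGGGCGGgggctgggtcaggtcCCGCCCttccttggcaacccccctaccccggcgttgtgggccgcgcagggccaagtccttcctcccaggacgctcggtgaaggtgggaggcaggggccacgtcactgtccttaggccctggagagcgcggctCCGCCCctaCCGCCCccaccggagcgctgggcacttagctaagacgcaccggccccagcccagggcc
CLDN1 to CLDN16, chr3:190322476-190322540: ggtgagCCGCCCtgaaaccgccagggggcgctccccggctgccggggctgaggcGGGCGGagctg
CLDN7, chr17:7262479-7262508: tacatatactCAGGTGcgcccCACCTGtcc

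In these windows 5 motifs were searched on both strands. The GC box, a site of SP-family factors, matched 4 times before CLDN3, where 7.63% of all 35116 promoter windows of that length hold at least 4, and 42.6% hold at least 1. It also matched 3 times before a start of CLDN10 and 2 times before CLDN1. CLDN4, CLDN15 and the inner start of CLDN7 had 1 match each. The E-box CACCTG, a site of the SNAI and ZEB repressors, matched 4 times before the inner start of CLDN7, a number that 0.122% of windows reach (17.5% hold at least 1), and in no other window of a member. Of those 4 matches, the 2 nearest the start are the ones printed above. The estrogen response element (GGTCA and TGACC with any 3 bases between), in 0.0399% of windows, the grainyhead motif AACCGGTT, in 0.117%, and the TATA box TATAAA, in 10.7%, had no match before any member. A match describes the letters and does not show binding.

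Against WT, 0 of the 6 claudins that passed the filter of a mean of at least 1 RPM (CLDN1, CLDN3, CLDN4, CLDN7, CLDN12 and CLDN15) were called by limma on log2(RPM + 1) with Benjamini-Hochberg adjustment at 0.05. The background is 0.00689% of 14509 genes, which is CLDN6 alone. None of the 6 had an unadjusted p under 0.05 by limma or by limma-voom, beside 4 and 8 of all 14509 genes tested. With so few in the whole table, the lack of one among the 6 says little about claudins. CLDN2, CLDN8, CLDN10 and CLDN23 were below the filter. WT has no replicate, so the fit judges each difference by a spread shared among genes, with 1 residual degree of freedom. The prior degrees of freedom were infinite, so p-values and intervals treat that shared spread as known exactly. Whether the CLDN6 pair came from separate cultures is not in the labels, so p-values measure the spread of these samples alone, and that spread may be technical. In bulk RNA, fewer cells that make a gene and less RNA per cell cannot be told apart.

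Both CLDN6 libraries lay above WT for CLDN1 and CLDN15, 2 of the 6, against 9.06% of all genes tested. Both lay below for CLDN3, 1 of the 6, against 15.1%. WT lay between them for CLDN4, CLDN7 and CLDN12, 3 of the 6, against 75.9%. None was at least 2-fold above WT in both libraries (background 0.0345%) or at least 2-fold below it in both (background 0.193%). The median log2 change of the 6 was 0.19 in CLDN6 replicate 1 and -0.13 in CLDN6 replicate 2, beside 0.20 and -0.35 over all genes tested. The changes in the 2 CLDN6 libraries share the WT library.

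CLDN1 lay above WT in both CLDN6 libraries. Its log2 change was 0.59 in CLDN6 replicate 1 and 0.48 in CLDN6 replicate 2, and the mean was 0.53 ± 1.04 (SE; 95% interval -1.51 to 2.58), with adjusted p = 0.99996 by limma. With the dependence on GC content, length and level taken out, the changes of CLDN1 were 0.20 and 1.01, on the same side but no longer alike. By reads alone, CLDN1 was 1.52 times WT (1.44 to 1.62) in CLDN6 replicate 1 and 1.41 times WT (1.32 to 1.50) in CLDN6 replicate 2, with intervals that cover counting error only. CLDN15 was 1.32 times WT (1.11 to 1.57) and 1.45 times WT (1.22 to 1.73), and its mean log2 change was 0.37 ± 1.24 (SE). CLDN15 lost its shared side under quantile normalization, with WT then in the middle.

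CLDN3 was 0.887 times WT (0.840 to 0.937) in CLDN6 replicate 1 and 0.662 times WT (0.623 to 0.703) in CLDN6 replicate 2. Its mean log2 change was -0.37 ± 1.05 (SE). After that removal CLDN3 was 0.37 above WT in CLDN6 replicate 1 and below it in CLDN6 replicate 2 (-0.77), on the log2 scale, so the shared side was lost.

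The other 3 tested members went opposite ways in the CLDN6 libraries. CLDN4 had log2 changes of 0.07 and -1.50, with a mean of -0.72 ± 0.94 (SE; 95% interval -2.56 to 1.12). CLDN12 had log2 changes of 0.79 and -1.01, with a mean of -0.11 ± 1.16. CLDN7 had log2 changes of -0.46 and 0.31, with a mean of -0.08 ± 0.93. With trimmed-mean and median-ratio scaling, both CLDN6 libraries lay below WT for CLDN4, and the mean change of CLDN7 turned positive. On the RPM scale, the 95% interval of the mean change in limma reached to both sides of WT for each of these 3 members.

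**Figure D3:**
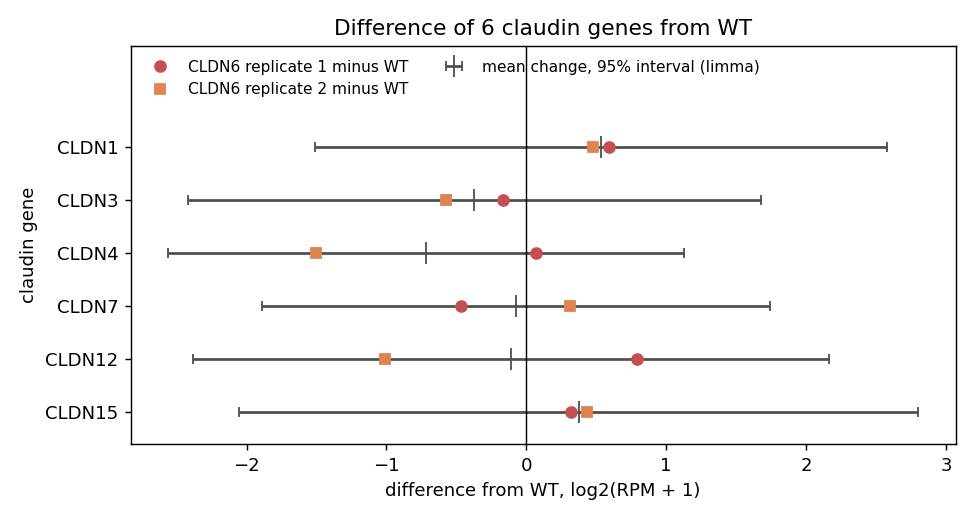
Difference from WT on the log2(RPM + 1) scale for the 6 claudin genes tested, in CLDN6 replicate 1 (circles) and CLDN6 replicate 2 (squares), with the mean of both and its 95% interval from limma (bars). All 6 intervals include 0, and the circles and squares fall on opposite sides of 0 for CLDN4, CLDN7 and CLDN12.

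Between the CLDN6 libraries, CLDN4 and CLDN12 were at least 2-fold apart, 2 of the 6, against 43.4% of all genes tested. Both were higher in CLDN6 replicate 1, as were 36.2% of genes, and none of the 6 was at least 2-fold lower there (background 7.15%). By reads, CLDN12 was 3.77 times as high in CLDN6 replicate 1 as in CLDN6 replicate 2 (3.45 to 4.14), and CLDN4 was 3.01 times as high (2.89 to 3.13). CLDN2, which was not tested, was 10.2 times as high (2.50 to 89.3), with the low value resting on 2 reads. CLDN7 was 0.581 times as high (0.564 to 0.599). With trimmed-mean and median-ratio scaling, CLDN12 and CLDN7 were the members at least 2-fold apart, and after removal of the trend CLDN3 and CLDN4 were.

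Across the table the difference between the CLDN6 libraries moved with GC content, so that content is given beside each member. The transcript of CLDN12 has 38.1% GC, in the lowest decile of genes, where the median log2 difference between the CLDN6 libraries was 1.62. CLDN12 differed by 1.80, at percentile 60.4 of that decile. CLDN4, with 57.5% GC, differed by 1.57 where the median of its decile was -0.22, which put it at percentile 96.3. CLDN1, with 41.5% GC, differed by 0.11 where the median of its decile was 1.25, at percentile 9.88.

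CLDN3 has 69.2% GC and differed by 0.41 against a median of -0.33 in the highest decile (percentile 80.0). CLDN7 (59.6% GC, percentile 23.0) and CLDN15 (60.2% GC, percentile 57.2) share a decile with a median of -0.27, and differed by -0.78 and -0.12. After removal of the trend, the difference between the CLDN6 libraries was 0.51 for CLDN12, 0.16 for CLDN7, 1.91 for CLDN4 and 1.14 for CLDN3. For CLDN1 it was -0.81. CLDN12 and CLDN7 thus came closer together between the libraries, and CLDN4, CLDN3 and CLDN1 moved farther apart. The part of GC content in these differences was not tested beyond that.

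**Figure D4:**
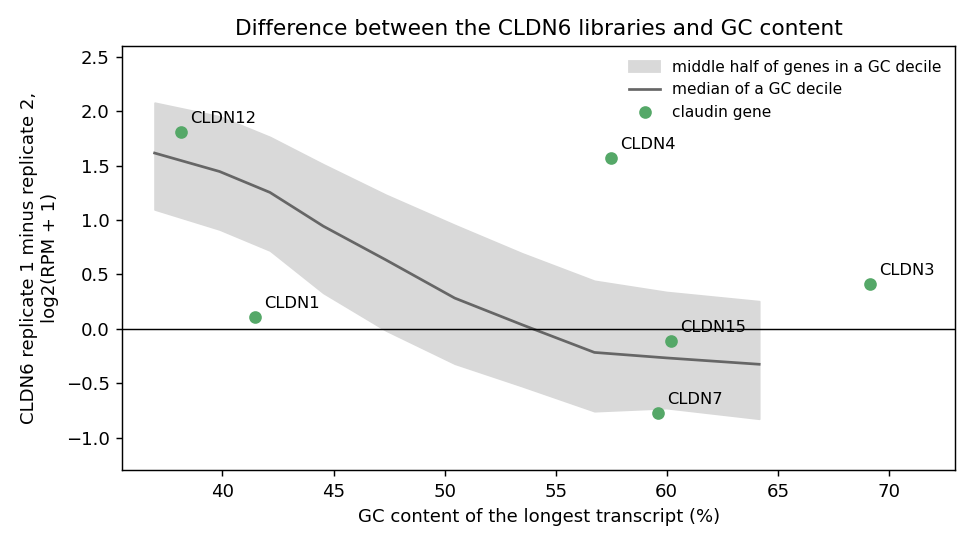
Log2 difference between CLDN6 replicate 1 and CLDN6 replicate 2 for the 6 claudin genes tested (points) against the GC content of the longest transcript in percent, with the median (line) and the quartiles (band) of all genes in each GC decile. CLDN12, at 1.80, and CLDN15, at -0.12, lie within the band, while CLDN4, at 1.57, lies far above it and CLDN1, at 0.11, below it.

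Of the 10 rows, 6 overlap no other row of the table (CLDN1, CLDN3, CLDN4, CLDN8, CLDN15 and CLDN23). The CLDN7 row (ENSG00000181885, chromosome 17 from 7259903 to 7263983) shares 2187 bases with RP1-4G17.5 on the same strand. That row stood at 0.333, 0.321 and 0.324 of the RPM of CLDN7, an almost fixed proportion. ELP5, on the opposite strand, shares 38 bases with CLDN7 and stood at 0.255, 0.259 and 0.262 of its RPM. The CLDN12 row (ENSG00000157224, chromosome 7 from 90383721 to 90513402) overlaps GTPBP10, at 16.1, 4.29 and 9.61 RPM, and CDK14, at 14.8, 2.95 and 7.78 RPM, both ordered over the libraries as CLDN12 was. The CLDN2 row lies within MORC4, on the opposite strand, which was read at 35.8, 7.68 and 25.3 RPM. The strand setting of the count is not given in the sources used here, so the reads of CLDN2, CLDN7 and CLDN12 in these overlaps are uncertain.

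Of 12 other claudins listed, 11 were in the table and 3 were tested, with 0 called. CLDN11 and CLDN16 lay above WT in both CLDN6 libraries (background 9.06%). CLDN19 lay below it in both (background 15.1%), at 2.90, 0.259 and 2.95 RPM. Intervals of the read ratio to WT included 1 for CLDN11 (0.969 to 2.29) and CLDN19 (0.805 to 1.20) in CLDN6 replicate 1. In CLDN6 replicate 2 so did that of CLDN16 (0.798 to 1.46). CLDN14, CLDN17, CLDN24 and CLDN25 had 0 reads in every library. Among tight junction membrane proteins and scaffolds, the partners that claudins are anchored to, 0 of 22 tested were called. F11R lay above WT in both CLDN6 libraries, LSR and TJP3 below, and WT lay between for 19 of 22, where 75.9% of all genes tested have it between. At least 2-fold higher in CLDN6 replicate 1 than in CLDN6 replicate 2 were 13 of the 22 and 0 were lower, beside 36.2% and 7.15% of all genes tested, with a median log2 difference of 1.29 beside 0.26 for the 6 claudins and 0.56 for all genes tested.

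Of proteins that bind, modify or turn over claudins, 0 of 9 tested were called and WT lay between the CLDN6 libraries for all 9, the pattern that 75.9% of all genes tested have. LNX1, a ubiquitin ligase of claudins, and the kinase WNK1 were at least 2-fold higher in CLDN6 replicate 1, and the receptor kinase EPHA2 was lower. Of 18 transcription and splicing factors of epithelial state, 13 were tested and 0 called. CDX2 and ESRP2 lay above WT in both CLDN6 libraries, and ELF3 and TWIST1 were among those below. EHF, ESRP1, GRHL2 and KLF4, 4 of the 13, were at least 2-fold higher in CLDN6 replicate 1 than in CLDN6 replicate 2, against 36.2% of all genes tested.

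For each claudin with a mean of at least 5 RPM, the nearest of 33 genes from the last 3 lists was sought by the distance between their pairs of log2 changes from WT, as a description over 3 libraries. Nearest to CLDN12 was INADL, a scaffold of the tight junction also called PATJ, at 56.2, 15.3 and 32.2 RPM, at a distance of 0.013, and 8 of all genes tested lay as near. LNX1 followed at 0.15, where 2.05% of all genes tested lay as near. Nearest to CLDN4 were the epithelial splicing regulator ESRP1, at 106, 41.3 and 101 RPM (distance 0.23), and WNK1 (0.30). As near to CLDN4 as ESRP1 lay 0.558% of all genes tested, and as near as WNK1 1.03%. Nearest to CLDN7 were SPINT1 and SPINT2, inhibitors of membrane proteases, each at a distance of 0.19, and 4.50% and 4.59% of all genes tested lay as near. Nearest to CLDN1 were ESRP2 (0.37) and the junction adhesion molecule F11R (0.55), with 290 and 926 of all genes tested as near, and nearest to CLDN3 was ELF3 (0.42), where 12.3% of all genes tested lay as near.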

How the data were processed

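The authors deposited 1 table of log2 values per gene with a column per library, 35805 rows, made on GRCh38, per the submitters' processing notes. The aligner, counter, annotation and strand setting: not given in the sources used here. Taken off the log2 scale, the deposited values were whole multiples of 1 step per library in 99.9782%, 99.9275% and 99.9687% of genes (tolerance 0.05 of a read), so reads were recovered, and values listed at 0.9 of a read were set to 0. Left out were 2 rows lacking a gene ID and 90 with a shared ID and no read. Each column's name holds its sample's group and replicate (CLDN6 1, CLDN6 2, WT), which served as the match.

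Genes averaging 1 RPM or more were tested on log2(RPM + 1) with limma 3.58.1 (mean-variance trend, two-sided, Benjamini-Hochberg over 14509 genes, threshold 0.05) in R 4.3.3. The prior degrees of freedom were infinite. The code was also run on simulated libraries with known changes. Those had far less spread between libraries and no GC trend, so that run does not show how the test performs on these data. Ratios of reads have exact conditional 95% intervals. Lengths, exons and GC content came from GENCODE release 29. Trend removal used splines of 5 degrees of freedom in each library, with medians aligned. Named were all 10 members, CLDN6 and, by rule, the nearest 2 listed genes (some results are not reported here); genes named by their side of WT or fold within a list were chosen after their values were seen. The members, lists and tests were chosen with earlier results of these data known.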

Additional observations from a re-analysis of the deposited data

How the results depend on the processing

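The alternatives were a pseudocount of 0.1 RPM, no filter or a mean of at least 5 RPM, trimmed-mean, median-ratio and quantile scaling, removal of the GC, length and level trend, limma-voom on recovered reads, and each CLDN6 replicate left out. The number of members called was 0 under each that tests. Of 47 mean log2 changes of members so recomputed, replicates left out aside, 44 kept their direction and 3 reversed: CLDN7 was 0.0071 with trimmed-mean and 0.025 with median-ratio scaling, and CLDN12 was 0.086 with quantile normalization. The number of all genes called, 1, was 0 without a filter and 0 with limma-voom, where 146 and 8 genes had an unadjusted p under 0.05. Without a filter, 5 members rather than 3 lay on one side of WT in both CLDN6 libraries, since CLDN2 and CLDN23 were then among the genes kept. That number was 4 with trimmed-mean and with median-ratio scaling. It was 2 with quantile normalization, with trend removal and with the filter at a mean of 5 RPM. With 1 CLDN6 library left out there is no residual degree of freedom and no test; the log2 change then ranged from -0.46 to 0.31 for CLDN7, from -1.50 to 0.068 for CLDN4 and from -1.01 to 0.79 for CLDN12. The numbers on one side of WT and 2-fold apart were not run with limma-voom, whose values have their own offset. No paired analysis was possible because WT is a single library whose label carries no replicate number. Depth limits CLDN2 (2 reads in CLDN6 replicate 2), CLDN8 and CLDN10.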
